A study of Mus musculus with 20 samples.

Results

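The genes described here encode the ventricular myosin chains, the myosin binding proteins and the striated muscle actins of the sarcomere. They are Myh6, Myh7 and Myh7b (myosin heavy chains), Myl2 and Myl3 (ventricular light chains), Mybpc2 and Mybpc3 (myosin binding protein C isoforms), Acta1 and Actc1 (skeletal and cardiac actin). Every probe annotated to 1 of these 9 genes was taken, which gave 12 probes for 8 genes, of 45281 probes and 19057 distinct genes on the array. Myh7b, which encodes a slow myosin heavy chain, was matched by no probe and is named only. Where a gene had several probes, they are called A, B and C in order of brightness.

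RNA from the cardiac ventricle of male mice, left ventricular tissue by the study's methods, was hybridised to Illumina bead arrays, 1 array for each sample. TAC DKO (n = 6) and Sham DKO (n = 4) hearts came from mice with homozygous floxed Dnmt3a and Dnmt3b and a Cre under the promoter of Myl7, the atrial myosin light chain gene, which is active in cardiomyocytes. TAC CTL (n = 6) and Sham CTL (n = 4) hearts came from mice with the same floxed alleles and no Cre, so that Cre itself and the deletions cannot be told apart. Transverse aortic constriction (TAC), a suture around the aortic arch that loads the left ventricle, was done at 10 to 12 weeks of age and lasted 4 weeks. Tissue was taken at 14 to 16 weeks. Cre removes an exon of the catalytic domain from each gene, and the other cells of the ventricle keep both genes. By the study's own account recombination in cardiomyocyte nuclei was incomplete. It also reported that Dnmt3a mRNA with the deleted exon was nearly gone from sorted cardiomyocytes, where Dnmt3b was barely detectable. Nothing in the labels says whether replicates differ in litter or day, and the p-values measure the spread between these samples.

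The values are intensities after quantile normalization over all 20 arrays. The deposited values had been brought to 1 common distribution within the 8 sham arrays and to another within the 12 TAC arrays, so surgery and normalization set cannot be told apart in any TAC against sham difference below. Genotype comparisons lie within a set. The 5 probes for Dnmt3a and Dnmt3b did not check the genotype labels: 4 of them were near background in all groups, DKO minus CTL log2 differences ran between -0.15 and 0.12, none was called, and where these probes lie relative to the deleted exons is not known. Near background means a group mean under the 95th percentile of the 1287 olfactory receptor probes on the same arrays. These genes were taken as silent in heart, which was not tested for each. The cardiomyocyte markers outside the sarcomere were bright in all groups, with summed intensities of 169136 to 194470 in TAC DKO, 175590 to 196439 in TAC CTL, 203576 to 206354 in Sham DKO and 200236 to 210445 in Sham CTL hearts. In unsorted ventricular tissue, fewer cells of a type and less RNA per cell cannot be told apart.

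Some arrays stood apart. Sham CTL replicate 2 held fast skeletal muscle transcripts, with 1297 for Pvalb (47.6 to 124 on the other 19 arrays), 508 for Tnnc2 (40.1 to 56) and 276 for Myh4 (40.2 to 51.2). The sum of 13 fast skeletal markers did not set it apart. It was 12771 there, 12406 and 10171 on TAC DKO replicates 4 and 5, and 4716 to 9733 elsewhere. Of these markers Myl1 was bright in all groups, and Atp2a1 averaged 612 in Sham DKO, 527 in Sham CTL, 296 in TAC DKO and 61 in TAC CTL hearts. Among TAC arrays, 6 (DKO replicates 1 to 4 and CTL replicates 1 and 2) had an olfactory 95th percentile of 64.2 to 68.0, against 60.0 to 61.2 on the other 6. Sham CTL replicate 4, at 62.9, had the highest value among the sham arrays.

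Myosin heavy chains are the motors of the thick filament. In the adult mouse ventricle Myh6 (alpha, fast) prevails and Myh7 (beta, slow) is kept low, and mechanical load classically moves their balance towards Myh7. Acta1 and Actc1 form the thin filament, and Acta1, the skeletal isoform, is prominent in the fetal and the loaded heart. Serum response factor binds CArG boxes in actin promoters, MEF2 factors bind their own AT-rich box, and TEAD factors bind CATTCC elements in several sarcomeric promoters.

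The promoters of both heavy chains and both actins are shown because these genes moved in opposite directions after TAC, and the elements can be set beside those changes. Sequences are from RefSeq, build GRCm38.p6, 250 bases before to 50 after the start site that the promoter table uses, all on the minus strand and written in the direction of transcription. They cover chr14:54966558-54966857 for Myh6, chr14:54994577-54994876 for Myh7, for which the table holds a further start site, chr8:123894726-123895025 for Acta1 and chr2:114052826-114053125 for Actc1. Capitals mark the matches to a CArG box, a MEF2 box, CATTCC or TATAAA, searched on both strands.
Myh6: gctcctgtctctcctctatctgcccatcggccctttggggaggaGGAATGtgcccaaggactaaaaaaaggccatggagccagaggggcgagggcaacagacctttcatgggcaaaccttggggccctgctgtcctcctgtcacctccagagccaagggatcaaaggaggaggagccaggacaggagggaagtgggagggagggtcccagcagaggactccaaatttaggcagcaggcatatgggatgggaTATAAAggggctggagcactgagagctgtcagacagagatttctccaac
Myh7: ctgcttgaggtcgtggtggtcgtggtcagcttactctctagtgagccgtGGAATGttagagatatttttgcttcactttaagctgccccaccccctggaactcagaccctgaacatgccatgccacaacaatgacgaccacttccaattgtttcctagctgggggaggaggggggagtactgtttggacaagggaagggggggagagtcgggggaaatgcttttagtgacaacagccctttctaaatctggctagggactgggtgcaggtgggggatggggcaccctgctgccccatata
Acta1: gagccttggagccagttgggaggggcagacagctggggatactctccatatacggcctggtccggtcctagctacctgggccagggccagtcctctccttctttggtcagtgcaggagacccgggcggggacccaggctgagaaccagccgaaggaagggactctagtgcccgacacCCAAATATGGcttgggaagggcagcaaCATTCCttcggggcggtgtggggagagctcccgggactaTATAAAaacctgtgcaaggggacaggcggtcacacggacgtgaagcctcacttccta
Actc1: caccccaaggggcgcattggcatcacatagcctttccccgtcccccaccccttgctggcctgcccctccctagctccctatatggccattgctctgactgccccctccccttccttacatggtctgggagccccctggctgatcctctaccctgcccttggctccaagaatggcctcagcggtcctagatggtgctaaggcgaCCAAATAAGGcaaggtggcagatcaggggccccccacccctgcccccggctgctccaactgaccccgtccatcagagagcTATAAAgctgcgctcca

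In the annotation of that build Myh6 and Myh7 lie next to each other among protein-coding genes, with the microRNA gene Mir208a and the long noncoding RNA gene Mhrt among those between them. A CArG box was found in the promoters of 3 of the 9 members, Acta1 (bases -73 to -64 from the start site), Actc1 (-47 to -38) and Myl3 (-85 to -76), and in 1.63% of all 32851 promoters of 300 bases. CATTCC or its complement lay in 5 of the 9, Myh6, Myh7, Acta1, Myl3 and Mybpc2, and in 14.7% of all promoters. In Myh6 it ran from -206 to -201 and in Myh7 from -201 to -196, in both in the antisense orientation. TATAAA lay in 3 members, Myh6 (bases 2 to 7), Acta1 (-7 to -2) and Actc1 (34 to 39), and in 13.6% of all promoters. A MEF2 box lay in 1, Mybpc3, and in 0.557%. All positions count from the start site in the promoter table, and whether those sites are exact was not tested. No 2 matches overlapped. A match says only that the letters are present.

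Member probes were called after TAC in both genotypes, and none was called between genotypes. A probe was called where limma's Benjamini-Hochberg adjusted p over all probes was under 0.05 and the fold over 1.5. In DKO hearts 6 of the 12 member probes were called after TAC, 4 higher and 2 lower, where 6.74% of all probes were called (2.46% higher, 4.27% lower). In CTL hearts 8 were called, 6 higher and 2 lower, where 5.17% of all probes were called (1.76% higher, 3.4% lower). The TAC and sham ranges did not overlap for 8 member probes in DKO hearts, 4 higher and 4 lower (20.5% of all probes, 11.1% higher and 9.38% lower). In CTL hearts they did not overlap for 7, 4 higher and 3 lower (16.1% of all probes, 8.37% higher and 7.78% lower). The median log2 difference of the members was 0.32 in DKO and 0.45 in CTL hearts, against 0.02 and 0.01 over all probes. The calls over all probes split into 1116 up and 1934 down in DKO hearts and 798 up and 1541 down in CTL hearts. With the deposited values centred on each array's median the split was 204 up and 4166 down in DKO and 186 up and 3848 down in CTL hearts.

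**Figure D1:**
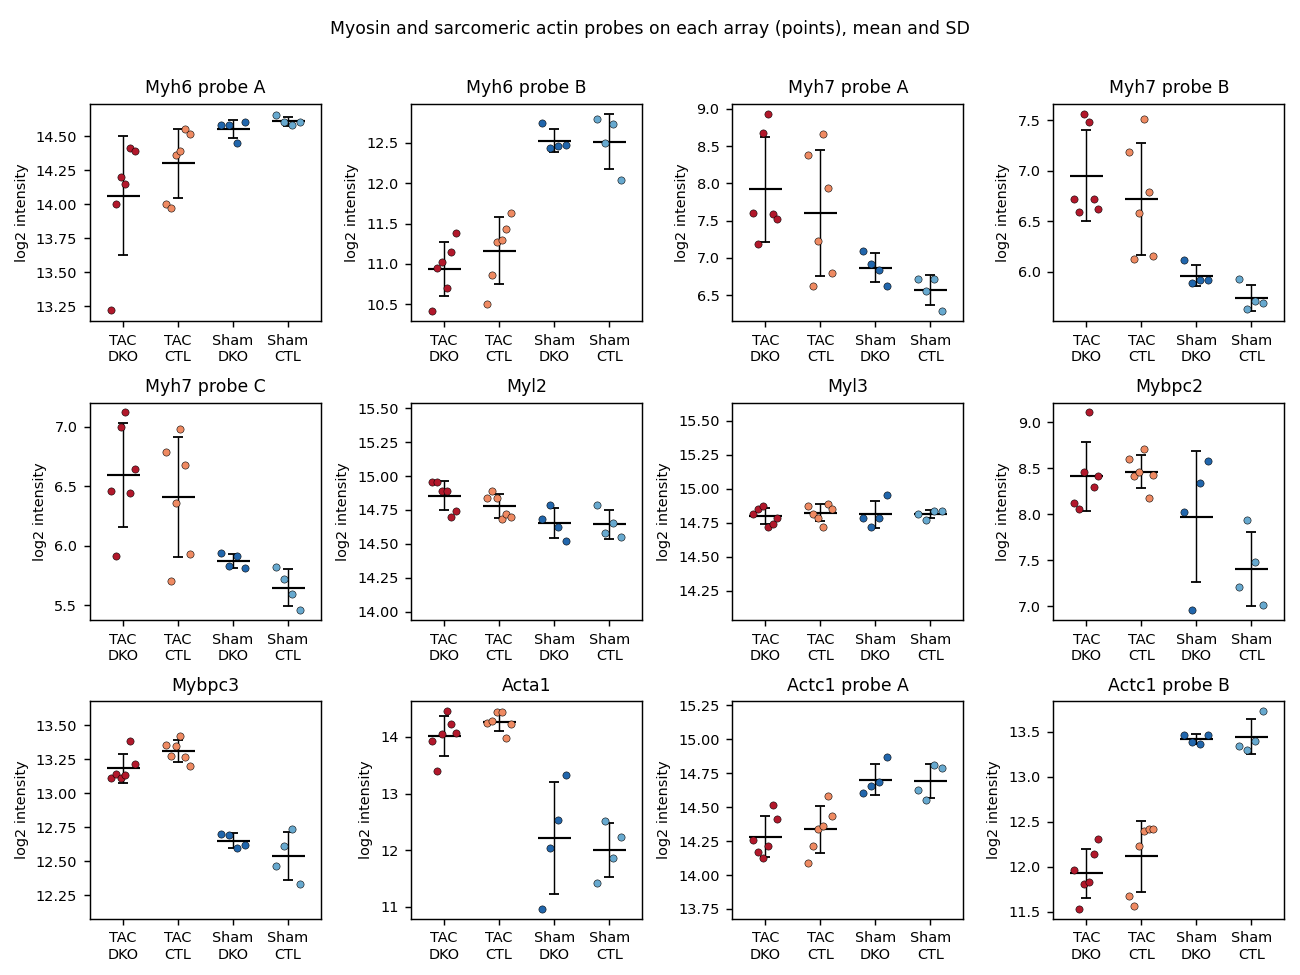
log2 intensity of each member probe (y axis, a separate scale in each panel) on every array, by group (x axis); points are arrays, and bars are the mean ± SD. Acta1, Myh6 probe B and Actc1 probe B separate TAC from sham arrays, while the genotypes overlap within each surgery for all 12 probes.

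Myh6, the alpha heavy chain, fell after TAC. On probe B the intensity had a lowest value of 1364, a median of 2026 and a highest value of 2663 in TAC DKO hearts, against 6861, 5528, 5638 and 5690 in the Sham DKO hearts. It had a lowest value of 1445, a median of 2493 and a highest value of 3180 in TAC CTL hearts, against 7131, 5801, 6783 and 4193 in the Sham CTL hearts. Every TAC array lay below every sham array in both genotypes. The fold was 3.02 in DKO hearts (log2 -1.59 ± 0.19, SE, adjusted p = 8.6e-07) and 2.55 in CTL hearts (log2 -1.35 ± 0.19, adjusted p = 1.14e-05).

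Myh6 probe A is among the brightest on the array, at rank 14 to 21 of 45281 on sham arrays and at rank 18 to 126 on TAC arrays. It had a lowest value of 9556, a median of 18477 and a highest value of 21793 in TAC DKO hearts, against 22438 to 24869 in Sham DKO hearts. TAC CTL hearts had a lowest value of 16088, a median of 21280 and a highest value of 24027, against 24484 to 25820 in Sham CTL hearts. The ranges did not overlap here either, but the change was smaller than on probe B and was not called, with log2 -0.49 ± 0.16 (adjusted p = 0.0241) in DKO and -0.31 ± 0.16 (adjusted p = 0.185) in CTL hearts. Whether the top of the scale compresses changes was not tested.

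Myh7, the beta heavy chain, rose after TAC on all 3 probes, with wide scatter among TAC hearts that was widest on probe A. Probe A read 195, 146, 407, 490, 192 and 184 in the TAC DKO hearts, against 137, 121, 115 and 98 in the Sham DKO hearts. It read 333, 98, 150, 406, 246 and 112 in the TAC CTL hearts, against 105, 94, 105 and 78 in the Sham CTL hearts. The lowest TAC CTL heart, replicate 2, overlapped the sham range, and the coefficient of variation was 53.0% in TAC DKO and 56.3% in TAC CTL hearts, against 13.4% and 13.5% in Sham DKO and Sham CTL hearts. On probe B it was 33.3% and 39.2%, against 7.5% and 9.5%, and on probe C 28.8% and 32.6%, against 4.1% and 10.7%, in the same order. Replicates 3 and 4 of TAC DKO and replicates 1 and 4 of TAC CTL were the high ones on probes A and B.

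The log2 difference on probe A was 1.05 ± 0.34 in DKO hearts (adjusted p = 0.0249) and 1.04 ± 0.34 in CTL hearts (adjusted p = 0.0321). The adjusted p of this call crossed 0.05 when single arrays were left out. In CTL hearts the adjusted p was 0.0531 without Sham CTL replicate 1, 0.0673 without replicate 2, 0.0511 without replicate 3 and 0.0798 without replicate 4, and it was 0.0764, 0.0793 and 0.0621 without TAC CTL replicates 1, 4 and 5. In DKO hearts it was 0.0562 and 0.0703 without Sham DKO replicates 3 and 4, and 0.061 and 0.0618 without TAC DKO replicates 3 and 4. The log2 difference itself lay between 0.83 and 1.08 in these CTL fits and between 0.85 and 1.04 in these DKO fits.

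The other Myh7 probes were dimmer and their calls held without any single array. Probe B ranged between 96 and 189 with a median of 105 in TAC DKO hearts, against 69, 59, 60 and 61 in Sham DKO hearts, and between 70 and 182 with a median of 103 in TAC CTL hearts, against 61, 50, 52 and 52 in Sham CTL hearts. Its log2 difference was 0.99 ± 0.22 in DKO (adjusted p = 0.00157) and 0.98 ± 0.22 in CTL hearts (adjusted p = 0.00219), without overlap in either. Probe C gave 0.72 ± 0.21 (adjusted p = 0.012) and 0.76 ± 0.21 (adjusted p = 0.0104), with overlap in both. Both probes were near background in Sham CTL hearts, so the rise there has a lower bound of at least 1.74-fold for probe B and at least 1.42-fold for probe C. In Sham DKO hearts probe C averaged 58.7, barely above the background cut of 58.6, so its DKO difference may be limited by background too. Within groups the 3 probes varied together over the 20 arrays (Pearson r of 0.90 to 0.97 after the group means were removed), which describes probes of 1 transcript on the same RNA.

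The balance of both heavy chains was described by the log2 ratio of Myh7 probe A to Myh6 probe B on each array, set relative to the Sham CTL mean. It averaged 2.93 ± 0.85 in TAC DKO hearts, with values between 2.09 and 4.18, and 2.39 ± 1.03 in TAC CTL hearts, with values between 1.12 and 3.83. Sham DKO hearts averaged 0.29 ± 0.14 (SD), with values between 0.10 and 0.43, and Sham CTL hearts ran between -0.13 and 0.20. With this pair of probes all 12 TAC hearts thus lay above all 8 sham hearts, and the TAC genotypes overlapped. With Myh6 probe A as the denominator the means were 1.90 ± 0.77 in TAC DKO, 1.35 ± 0.87 in TAC CTL and 0.36 ± 0.21 in Sham DKO hearts. With that probe TAC and sham hearts were not fully apart. The lowest TAC CTL heart, at 0.33, lay under the highest Sham DKO heart, at 0.56. Within each genotype they did not overlap, as Sham CTL hearts reached 0.18 and the lowest TAC DKO heart was at 1.17. After the group means were removed, Myh7 probe A and Myh6 probe B had a Pearson r of -0.12 over the 20 arrays, which share their RNA and normalization.

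**Figure D2:**
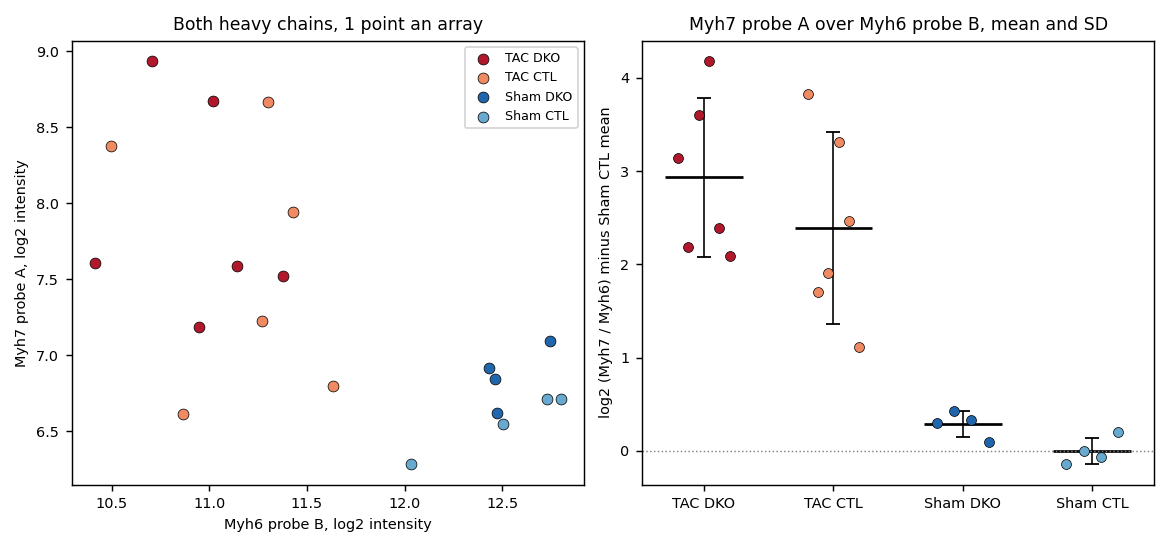
Left, Myh7 probe A against Myh6 probe B, both as log2 intensity, 1 point for each array; right, their log2 ratio on each array relative to the Sham CTL mean, with mean ± SD. TAC hearts sit at lower Myh6 with widely scattered Myh7, and their ratios run between 1.12 and 4.18, above every sham heart.

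The actins moved in opposite directions after TAC. Acta1, skeletal alpha-actin, had intensities of 15634, 10760, 16956, 22438, 19208 and 17213 in TAC DKO hearts, against 2002, 4216, 5918 and 10279 in Sham DKO hearts. It had 19390, 19863, 22131, 22131, 16180 and 19208 in TAC CTL hearts, against 2735, 5840, 3744 and 4806 in Sham CTL hearts. Sham DKO hearts spread widest, and their highest, replicate 4, came close to the lowest TAC DKO heart, replicate 2. Even so the groups did not overlap. The rise was 3.49-fold in DKO (log2 1.80 ± 0.29, adjusted p = 3.76e-05) and 4.79-fold in CTL hearts (log2 2.26 ± 0.29, adjusted p = 3.16e-06), the largest among the members. Sham CTL replicate 2, the array with high Pvalb, Tnnc2 and Myh4, was the highest of its group for Acta1. Without Sham CTL replicate 2 the CTL difference was 2.43 (adjusted p = 6.48e-06 by limma). TAC DKO replicate 4, also high in the sum of fast skeletal markers, was the highest TAC DKO heart, at 22438.

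Actc1, cardiac alpha-actin, fell. Probe B had a lowest value of 2965, a median of 3825 and a highest value of 5073 in TAC DKO hearts, against 11277, 10760, 10528 and 11337 in Sham DKO hearts. It had a lowest value of 3022, a median of 5108 and a highest value of 5488 in TAC CTL hearts, against 10427, 10111, 10835 and 13595 in Sham CTL hearts. All TAC hearts lay below all sham hearts. The fold was 2.81 in DKO (log2 -1.49 ± 0.16, adjusted p = 1.85e-07) and 2.51 in CTL hearts (log2 -1.33 ± 0.16, adjusted p = 1.36e-06). Probe A, at rank 4 to 18 on sham arrays, gave -0.42 ± 0.09 (adjusted p = 0.00101) and -0.36 ± 0.09 (adjusted p = 0.0051), both under the fold of 1.5. As for Myh6, the brighter probe of the pair showed the smaller change.

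Neither ventricular light chain was called after TAC. Myl2, the regulatory light chain, averaged 29710 ± 2189 in TAC DKO, 28148 ± 1692 in TAC CTL, 25843 ± 2006 in Sham DKO and 25651 ± 1906 in Sham CTL hearts (SD). The TAC difference was 0.20 ± 0.07 in DKO (adjusted p = 0.0327) and 0.13 ± 0.07 in CTL hearts (adjusted p = 0.183). Myl3, the essential light chain, gave -0.02 ± 0.05 and 0.01 ± 0.05 on the log2 scale. Both probes ranked between 1 and 19 on every array.

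Mybpc3, the cardiac isoform of myosin binding protein C that tunes cross-bridge cycling, was higher after TAC. It read between 8854 and 10692 with a median of 9030 in TAC DKO hearts, against 6659, 6634, 6194 and 6287 in Sham DKO hearts, and between 9405 and 10974 with a median of 10169 in TAC CTL hearts, against 5650, 6250, 6841 and 5160 in Sham CTL hearts. The groups did not overlap. The difference was called in CTL hearts, at 0.77 ± 0.07 (adjusted p = 4.46e-08). In DKO hearts it was 0.53 ± 0.07 (adjusted p = 5.26e-06), a fold of 1.44 and so under the threshold.

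Mybpc2, the fast skeletal isoform, was dim. It read 279, 267, 352, 551, 314 and 341 in TAC DKO hearts, against 260, 124, 323 and 383 in Sham DKO hearts, which overlapped. It read 389, 341, 353, 417, 290 and 343 in TAC CTL hearts, against 148, 245, 178 and 129 in Sham CTL hearts, which did not. The difference was 0.44 ± 0.23 in DKO (adjusted p = 0.178) and 1.06 ± 0.23 in CTL hearts (adjusted p = 0.00171, called). Sham CTL replicate 2 was again the highest of its group, and without it the CTL difference was 1.23 (adjusted p = 0.000891 by limma). TAC DKO replicate 4 was the highest TAC DKO heart, at 551. When the deposited values were instead centred on each array's median, the CTL calls of Mybpc3 (0.33, adjusted p = 0.00128) and Mybpc2 (0.61, adjusted p = 0.0657) and the calls of Myh7 probe A (0.70 in CTL, 0.67 in DKO) were lost, and probe A of Myh6 and of Actc1 was called lower in both genotypes.

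**Figure D3:**
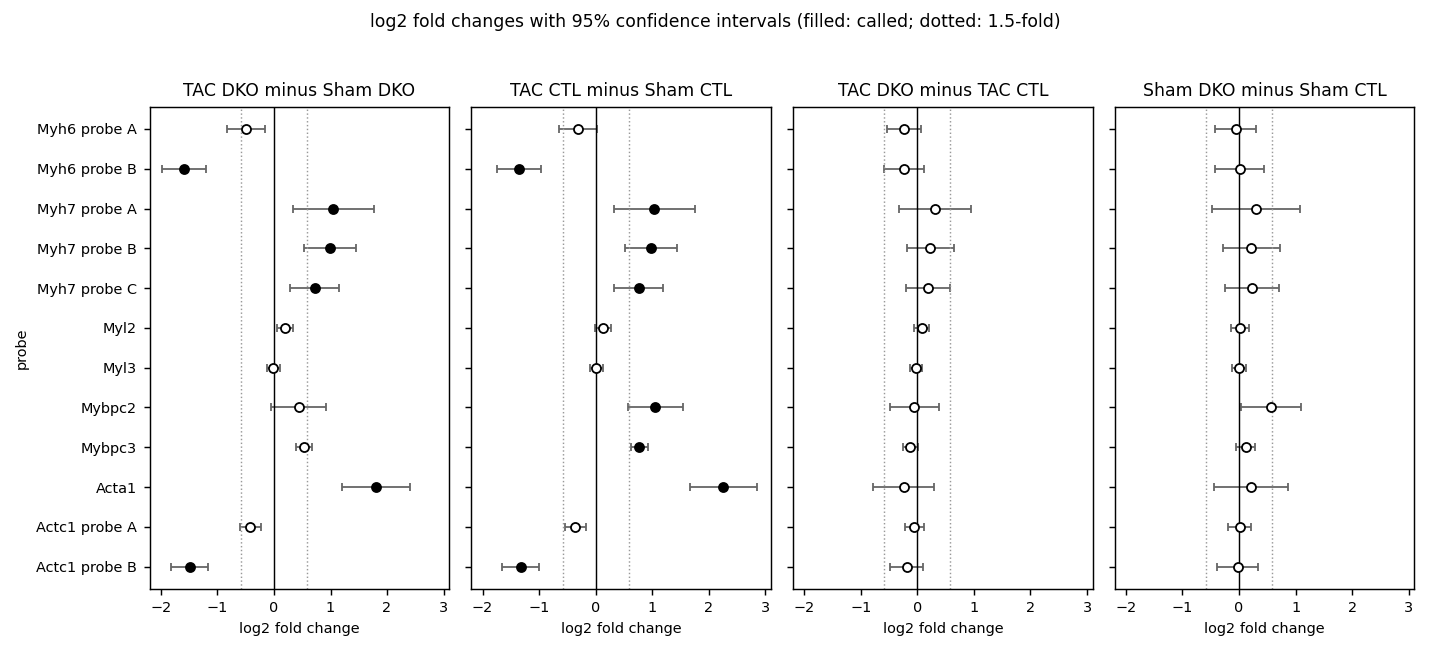
log2 fold change of each member probe (x axis) in the 4 pairwise comparisons, with 95% confidence intervals from limma; filled points were called and dotted lines mark a fold of 1.5. After TAC the Myh6 and Actc1 probes lie left of 0 and the Myh7, Mybpc3 and Acta1 probes right of it in both genotypes, whereas no point is filled in the genotype comparisons.

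No member passed the test between genotypes. After TAC, 0 of the 12 probes were called (0.144% of all probes were, 0.128% higher and 0.0155% lower) and 0 had an unadjusted p under 0.05, with adjusted p of 0.582 to 0.965. In sham hearts 0 were called (0.102% of all probes, 0.0883% higher and 0.0133% lower) and 1, Mybpc2, had an unadjusted p under 0.05. The DKO and CTL ranges overlapped for every probe in both surgeries, where 0.554% of all probes did not overlap after TAC (0.338% higher, 0.216% lower) and 3.89% in sham hearts (1.81% higher, 2.08% lower). No member probe was called in these comparisons under any alternative of the processing.

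The intervals set what these arrays could have shown. In TAC hearts the DKO minus CTL log2 difference was -0.23 (95% interval -0.58 to 0.12) for Myh6 probe B, 0.31 (-0.32 to 0.95) for Myh7 probe A and 0.23 (-0.19 to 0.64) for Myh7 probe B. It was -0.25 (-0.78 to 0.29) for Acta1, -0.19 (-0.48 to 0.11) for Actc1 probe B and -0.13 (-0.26 to 0.01) for Mybpc3. For these Myh7 probes and Acta1 the interval thus still held differences over 1.5-fold, while for Myl2 (-0.05 to 0.21), Myl3 (-0.13 to 0.08) and Mybpc3 it did not.

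In sham hearts the differences were 0.01 (-0.42 to 0.44) for Myh6 probe B, 0.30 (-0.48 to 1.08) for Myh7 probe A, 0.21 (-0.44 to 0.86) for Acta1 and -0.03 (-0.39 to 0.33) for Actc1 probe B. Mybpc2 had the largest, 0.57 (0.04 to 1.10, adjusted p = 0.863), with 3 of the 4 Sham DKO hearts above every Sham CTL heart and 1 below them all.

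The response to TAC did not pass the test for a difference between genotypes for any member. For the interaction, the TAC minus sham difference in DKO hearts less that in CTL hearts, 0 of 12 probes were called (0.00221% of all probes), with adjusted p of 0.939 to 0.998. The values were 0.01 (95% interval -1.0 to 1.0) for Myh7 probe A, -0.24 (-0.80 to 0.31) for Myh6 probe B and -0.45 (-1.29 to 0.38) for Acta1. Mybpc3 gave -0.24 (-0.45 to -0.03) and was the single member whose unadjusted p was under 0.05 (adjusted p = 0.939 by limma). That Mybpc2 and Mybpc3 were called in CTL and not in DKO hearts is thus not shown to be a difference between the genotypes.

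Part of the spread among TAC hearts followed the set of 6 arrays with the wider background. Myh6 probe B read 1364 to 2075 on the DKO arrays of that set and 2261 to 2663 on the other DKO arrays, and 1445 to 1862 against 2467 to 3180 on the CTL arrays. Actc1 probe B read 2965 to 4014 against 4518 to 5073 in DKO hearts and 3022 to 3265 against 4827 to 5488 in CTL hearts. In DKO hearts 6 of the 12 member probes did not overlap between the set and the other arrays, 1 higher and 5 lower, where 29.4% of all probes did not (15.3% higher, 14.1% lower). In CTL hearts 4 did not overlap, all lower, where 26.9% of all probes did not (14.1% higher, 12.8% lower). Both probes of Myh6 and of Actc1 were lower on the set in either genotype. In DKO hearts alone, Mybpc3 was lower (8854 to 9051, against 9496 to 10692) and Myl2 higher (30341 to 31764, against 26643 to 27403), and Myh7 and Acta1 overlapped on all their probes. The set holds 4 DKO and 2 CTL arrays, so it moves with genotype. The DKO minus CTL difference of Myh6 probe B was 0.09 within the set and -0.15 outside it, against -0.23 over all TAC arrays, and that of Actc1 probe B was 0.17 and -0.14, against -0.19. For Myh7 probe A it was 0.60 within the set and -0.11 outside it, against 0.31. What sets these arrays apart was not tested.

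**Figure D4:**
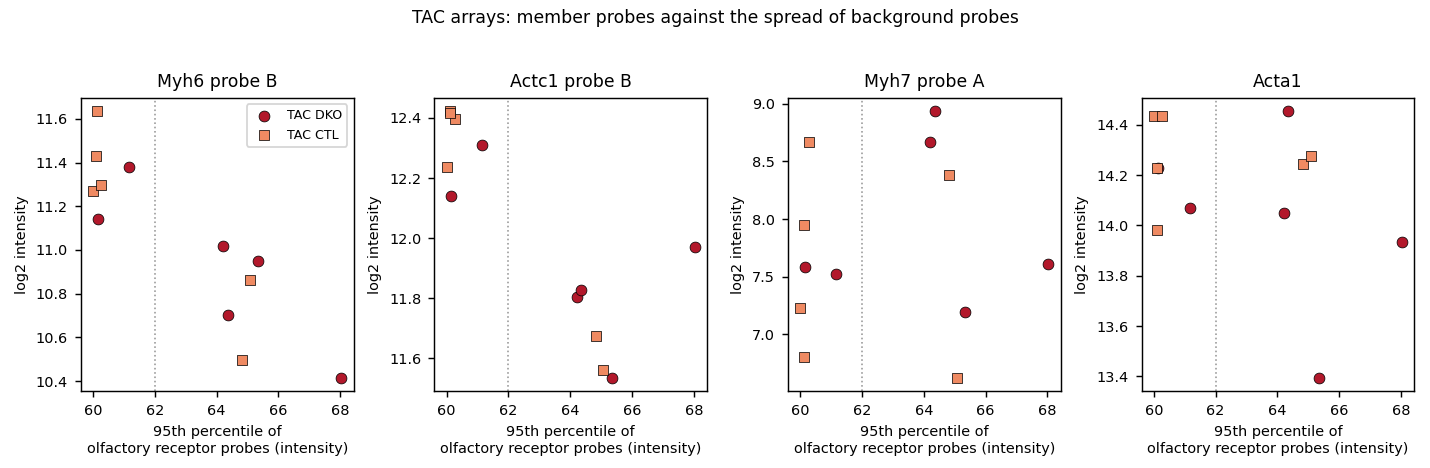
log2 intensity of 4 member probes (y axis) on the 12 TAC arrays against the 95th percentile of the olfactory receptor probes (x axis, intensity); the dotted line at 62 separates 6 arrays from the other 6. Myh6 probe B and Actc1 probe B are lower on all 6 arrays to the right of the line, in both genotypes, and Myh7 probe A and Acta1 overlap across it.

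By a rule on likeness, the genes whose probe followed a member most closely within groups over the 20 arrays were drawn from 9719 genes above background. For Myh7 probe A they were Lox (Pearson r = 0.92), which encodes lysyl oxidase, Col5a1 (0.84), a fibrillar collagen chain, Cercam (0.84), Adamts12 (0.84) and Ddah1 (0.84). For Myh6 probe A they were Tnks2 (0.90), Fkbp7 (0.89), Ubqln1 (0.89), Crip2 (0.88) and Itgb1bp2 (0.86), and for Acta1 Wdr5b (0.83), Bcs1l (0.80), Wdr45b (0.78), Rps19bp1 (0.78) and Sypl2 (0.76). Without the 2 arrays farthest from the median, r was between 0.75 and 0.90 for the genes of Myh7, 0.69 and 0.81 for those of Myh6 and 0.60 and 0.73 for those of Acta1. These are the highest of many and the arrays share their normalization, so they are descriptions.

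Other genes of the sarcomere, 1 probe a gene, the brightest, changed in both directions after TAC. Each called gene named below kept its direction in the deposited values without further scaling and with each array centred on its median. Centring removed many of the calls of higher genes. Its counts stand beside the lists, except those of cardiomyocyte, leukocyte and atrial markers. A call in 1 genotype alone is not shown to be a difference between the genotypes. Of 20 measured thin filament regulators, 1 rose and 4 fell in each genotype. Tpm2, a tropomyosin, was the riser (1.10 in DKO, 0.72 in CTL on the log2 scale), while Tnni3, cardiac troponin I (-1.47 and -1.37), Tpm3 (-0.96 and -1.02), Cfl2, muscle cofilin (-1.03 and -0.92), and Lmod2, leiomodin (-0.73 and -0.60), fell. The list's median was -0.12 in DKO and -0.18 in CTL hearts, against 0.04 and 0.03 over all genes. With median centring 1 rose and 7 fell in DKO and 0 rose and 8 fell in CTL hearts, where Tpm2 was at 0.25. Tnnt1, slow skeletal troponin T, was the 1 gene of this list that differed by genotype, with 1.58 ± 0.15 in TAC (adjusted p = 1.75e-06) and 1.26 ± 0.19 in sham hearts (adjusted p = 0.00174).

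Of 21 measured Z-disc, M-band and titin genes, 4 rose and 1 fell in DKO and 4 rose and 0 fell in CTL hearts. Flnc, filamin C (0.80 in DKO, 1.04 in CTL), Myom3, an M-band protein (0.69 and 0.66), and Pdlim3 (0.69 and 0.88) rose in both. Ttn, titin, was called in DKO hearts (0.88) and gave 0.51 in CTL hearts (adjusted p = 0.0244 by limma). Nrap was called in CTL hearts (0.65) and gave 0.36 in DKO hearts (adjusted p = 0.0171). Myoz2, calsarcin, was called lower in DKO hearts (-0.76) and gave -0.50 in CTL hearts (adjusted p = 0.00444). The uncalled values were under the fold threshold, and the interaction was not called for Ttn, Nrap or Myoz2 (adjusted p = 0.939 for each). The median of the list was 0.03 in DKO and 0.01 in CTL hearts. With median centring none of these rises was called in either genotype, and 4 of the 21 fell in DKO and 1 in CTL hearts.

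Among 14 measured genes of myosin phosphorylation and assembly, 2 rose and 7 fell in DKO hearts and 1 rose and 4 fell in CTL hearts, with medians of -0.48 and -0.35. Hsp90aa1 and Unc45b, the chaperones of myosin folding, fell by log2 2.4 and 1.5 in DKO hearts and by 1.9 and 1.2 in CTL hearts. Fhod3, a formin of the sarcomere, fell (-1.48 in DKO, -1.32 in CTL hearts). Fhl1 rose by 1.26 in DKO and 1.18 in CTL hearts, and Mylk, the smooth muscle kinase of myosin light chains, by 0.81 in DKO hearts. Mylk gave 0.54 in CTL hearts (adjusted p = 0.000855 by limma), under the fold threshold. Mylk3, the cardiac kinase that phosphorylates Myl2, fell (-0.88 in DKO, -0.69 in CTL hearts) and is named for that role after its values were seen. With median centring 1, Fhl1, rose in each genotype, 7 fell in DKO and 8 fell in CTL hearts.

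Of 8 measured other myosin heavy chains, 2 rose and 1 fell in DKO and 2 rose and 2 fell in CTL hearts. Myh11 of smooth muscle rose by 1.45 in DKO and 1.32 in CTL hearts and Myh10, a nonmuscle chain, by 0.81 and 0.77, whereas Myh14 was near background in TAC hearts of both genotypes, so its fall was at least 1.28-fold in DKO (adjusted p = 4.79e-05) and at least 1.60-fold in CTL hearts (adjusted p = 2.88e-06), and on the deposited scale it was not called in DKO hearts. Myh8 was called lower in CTL hearts (-0.59, adjusted p = 0.0031) and gave -0.53 (adjusted p = 0.00555) in DKO hearts, under the fold threshold. With median centring 1 rose and 3 fell in each genotype. Of 12 other light chains and binding proteins, 2 rose and 0 fell in each genotype, Myl9 in both (0.82 in DKO, 0.75 in CTL) and Myl12a in CTL hearts (0.77). Myl4, the atrial light chain, was called in DKO hearts (1.87) with wide scatter, at 1352 ± 1816 (SD) in TAC DKO against 206 ± 25 in Sham DKO hearts. It gave 0.90 in CTL hearts (adjusted p = 0.273 by limma). Of 3 other actins, 2 rose in DKO and 1 in CTL hearts, namely Actg2 in both (0.80 and 1.09) and Acta2 in DKO hearts (0.99). With median centring 0 of the light chains and binding proteins rose and 1 fell in each genotype, and 1 of the other actins, Actg2, rose in each. None of these 3 lists held a gene that differed by genotype.

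Of 32 measured transcription factors of myosin and actin genes, 4 rose and 2 fell in DKO and 2 rose and 2 fell in CTL hearts, with medians of 0.06 in both. Purb, which encodes a repressor of the Myh6 gene in cultured rat cardiomyocytes, rose by 1.02 in DKO and 0.97 in CTL hearts, and Myocd, a partner of serum response factor, by 0.64 and 0.60. Neither was called with median centring, where Purb was at 0.55 in DKO and 0.49 in CTL hearts and Myocd at 0.16 and 0.11, and Myocd was not called on the deposited scale either. Srf itself fell (-0.77 in DKO, -0.60 in CTL), as did Sp1 (-0.71 in CTL, and at least 1.70-fold in DKO, where it was near background after TAC). With median centring 0 of the factors rose, 4 fell in DKO and 3 fell in CTL hearts. Vgll2, a TEAD cofactor, was the 1 factor called by genotype, higher in DKO after TAC (1.28 ± 0.28, adjusted p = 0.0445), a call that the deposited values without further scaling did not give.

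Of 12 measured response genes of pressure overload, 2 rose and 3 fell in DKO and 4 rose and 3 fell in CTL hearts. Nppa, atrial natriuretic peptide, rose by 1.32 in DKO (adjusted p = 0.00265) and by 2.24 in CTL hearts (adjusted p = 1.26e-05). Its mean was 11639 in Sham DKO against 5431 in Sham CTL hearts (log2 1.18, adjusted p = 0.482 by limma). In TAC hearts it was 27794 in DKO against 24948 in CTL. The interaction was -0.92 (adjusted p = 0.939) and was not called. Nppb, its ventricular relative, gave 0.48 in DKO (adjusted p = 0.0819) and rose by 0.80 in CTL hearts (adjusted p = 0.00505), and was added after its values were seen. Ccn2, a matricellular protein, rose by 1.19 in DKO and 1.05 in CTL hearts. Pln, phospholamban, fell (-1.93 in DKO, -1.64 in CTL hearts), as did Ryr2, the calcium release channel (-0.96 in DKO, -0.85 in CTL), and Kcnd2, a potassium channel (-1.0 in DKO, -0.72 in CTL). With median centring 2 rose and 5 fell in DKO and 1, Nppa, rose and 3 fell in CTL hearts.

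Markers of other cells moved beside these genes. Of 12 fibroblast markers, 5 rose and 1 fell in DKO and 3 rose and 1 fell in CTL hearts after TAC, of 9 smooth muscle markers 5 rose in DKO and 2 in CTL hearts and 0 fell, and of 10 endothelial markers 0 were called in either. With median centring 1 fibroblast marker rose and 2 fell in DKO and 2 rose and 2 fell in CTL hearts, 1 smooth muscle marker rose and 1 fell in DKO and 2 rose and 2 fell in CTL hearts, and 5 endothelial markers fell in DKO and 6 in CTL hearts. Summed fibroblast markers ran from 8675 to 11283 in TAC DKO, 9135 to 13408 in TAC CTL, 9204 to 11269 in Sham DKO and 8786 to 11010 in Sham CTL hearts. Summed smooth muscle markers ran from 7864 to 15066 in TAC DKO, 8062 to 13796 in TAC CTL, 5646 to 7897 in Sham DKO and 8140 to 10342 in Sham CTL hearts. Of 18 cardiomyocyte markers outside the sarcomere, 0 rose and 3 fell in DKO and 0 rose and 2 fell in CTL hearts. Of 9 measured leukocyte markers, 1 rose and 2 fell in DKO and 1 rose and 1 fell in CTL hearts. Lyz2, lysozyme, fell (-1.84 in DKO, -1.58 in CTL). Adgre1 of macrophages was called lower in DKO hearts (-0.94) and gave -0.44 in CTL hearts (adjusted p = 0.0448 by limma), under the fold threshold. C1qb, a complement chain, rose by 0.66 in DKO and 0.83 in CTL hearts, but with median centring it was not called (0.18 and 0.35). Of 10 atrial markers, 4 rose and 1 fell in DKO and 2 rose and 1 fell in CTL hearts, and 1, Stard10, was called higher in DKO in both surgeries. With median centring the DKO calls of Myl4 (1.42, adjusted p = 0.0549 by limma) and Gja5 (0.38) were lost. Nppa and Dkk3 stayed called in both genotypes. The summed atrial markers ran from 26709 to 37261 in TAC DKO, 9564 to 33697 in TAC CTL, 8487 to 19017 in Sham DKO and 3564 to 8770 in Sham CTL hearts. These sums were mostly Nppa, which averaged 27794 in TAC DKO, 24948 in TAC CTL, 11639 in Sham DKO and 5431 in Sham CTL hearts. Of each of these lists 1 gene was near background in all groups, and their part in the changes of the myosins and actins was not tested.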

How the data were processed

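The series holds 20 arrays of cardiac ventricle RNA, 1 for each sample, grouped by the titles into TAC DKO, TAC CTL, Sham DKO and Sham CTL. The deposited values are linear intensity values that the authors took from GenomeStudio 2010.3, 45281 probes on each array. Which normalization was applied, and the genome build of the probes, is not given in the sources used here. Sorted values coincided within 0.2% for 97.57% to 100% of ranks between sham arrays and for 99.91% to 100% between TAC arrays, against at most 0.413% between a sham and a TAC array. Gene names came from the platform annotation, updated by gene ID for 34807 probes. Of all probes, 34885 named 1 gene, 18 several and 10378 none.

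Intensities were log2 transformed and quantile normalized over the 20 arrays. limma 3.58.1 in R 4.3.3 fitted 1 mean for each group and adjusted p-values over all probes (Benjamini-Hochberg). The residual degrees of freedom were 16. The thresholds of adjusted p under 0.05 and fold over 1.5 follow the study's methods, which name no model. The number of arrays limits the precision. The procedure was tested on simulated data. Lower bounds set a near-background group at the higher of its own value and the 95th percentile of the olfactory receptor probes. The genes and lists were chosen with earlier results of these data known. Named genes are all members, the targeted genes, up to 4 called genes of each list and comparison with the smallest adjusted p, and the 5 closest genes by likeness. Alternatives were the deposited scale with and without median centring, an offset of 16, a filter on dim probes, variance trend, array weights, only the 2 groups compared, the replicate number as a block, averaged probes and each array left out. A term for the wide-background arrays, subtraction of the olfactory median, and leaving out Sham CTL replicates 2 and 4 together were added after the data had been seen.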

Additional observations from a re-analysis of the deposited data

Results flagged for a closer look

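In groups of 4 to 6 arrays, the highest or lowest value was tested for its distance from the others (Dixon's ratio, 95% critical value). Of 48 combinations of a member probe and a group, 5 passed, and chance alone passes about 1 in 20, or 2.4 here. TAC DKO replicate 1 had 9556 on Myh6 probe A, far under the other 5 hearts of its group (16375 to 21793), and it also had the widest background of all arrays (68.0). Sham DKO replicate 3 had 22438 on the same probe, against 24484 to 24869 in the other 3. Sham DKO replicate 1 was high on Myh6 probe B (6861, against 5528 to 5690) and on Myh7 probe B (69.2, against 59.2 to 60.5). TAC DKO replicate 5 was high on Mybpc3 (10692, against 8854 to 9496).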

How the results depend on the processing

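Under 32 alternatives, 20 of which left out 1 array each, no called value changed its sign, 81 of 1450 values that were not called did, and 31 of 1908 values of single probes changed their side of the thresholds. The member probes called after TAC numbered 5 to 6 in DKO and 7 to 8 in CTL hearts when single arrays were left out, and 4 to 7 and 6 to 8 under the other settings. Where the probes of a gene were averaged, the count is of genes, out of 8, and not of probes, out of 12. The low of 4 in DKO hearts is that count, so it is no loss of calls. The genotype comparisons and the interaction gave 0 throughout. The added term for the wide-background arrays left Myh7 probe A uncalled at log2 0.92 in DKO (adjusted p = 0.133) and 0.97 in CTL hearts (0.0598) and gave 1 to Mybpc3 in DKO hearts (0.59). Without Sham CTL replicates 2 and 4 together, Myh7 probe A (0.88, adjusted p = 0.203) and probe C (0.68, 0.0884) were not called in CTL hearts. They were not called there either after the olfactory median was subtracted, where the log2 differences were larger, 1.58 for probe A (adjusted p = 0.0713) and 1.18 for probe C (0.144). Averaging the probes of a gene called Myh6 (-1.04 in DKO, -0.83 in CTL) and Actc1 (-0.95 and -0.84).

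For same-numbered arrays of different groups, 8 of 26 pairs had a correlation of their deviations over 0.1, in a range of -0.31 to 0.57. Between the genotypes after TAC it was 0.45, 0.33, -0.31, 0.15, 0.09 and 0.57 for replicates 1 to 6. In sham hearts it was 0.38, 0.10, 0.02 and 0.16 for replicates 1 to 4. After TAC, replicates 1 and 2 had the wider background in both genotypes, 5 and 6 in neither, and 3 and 4 in DKO hearts alone. Replicate number and that set of arrays thus cannot be told apart here, and these values do not settle whether the numbers pair the samples. With the replicate number as a block, 7 member probes were called after TAC in DKO hearts (Myh6 probe A joined at -0.64, adjusted p = 0.000774), 8 in CTL hearts and 0 in the other 3 comparisons.

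Over all probes, calls after TAC in CTL hearts numbered 4034 with median centring, against 2339. Subtracting the olfactory median gave 5730 in DKO and 4198 in CTL hearts, against 3050 and 2339, and 222 for genotype in sham hearts, against 46. Leaving out both Sham CTL arrays gave 24 there. Averaging over genes, with fewer features, gave 1050 in DKO and 782 in CTL hearts and 29 in TAC and 19 in sham hearts by genotype, against 65 and 46. The interaction had 0 to 128 calls, against 1. Without further scaling, the median of all probes was 0.29 (DKO) and 0.28 (CTL) higher in TAC hearts. Myl2, Myl3, Myh6 probe A and Actc1 probe A lay near the top of the scale, whose effect on them was not tested. Myh7 probes B and C lay near background in Sham CTL hearts, and probe C lay barely above it in Sham DKO hearts.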
